A study of Mus musculus with 6 samples.

Results

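In all, 9 NADPH oxidase and dual oxidase genes were followed in FITC-challenged ear skin. They were Cybb, Cyba, Ncf1, Ncf4 and Rac2 of the phagocyte oxidase, the related oxidases Nox1 and Nox4, and the dual oxidases Duox1 and Duox2. The genes were chosen by name, as oxidases or components of them, with earlier results of these data known. All 9 were measured among the 19938 genes of the array table, each by 1 probe set. The arrays read RNA of ear skin from 3 CLEC4C-DTR mice (genotype CLEC4C-DTR/+) and 3 littermate control mice, 1 mouse and 1 ear per array, aged 10 to 12 weeks. In CLEC4C-DTR mice the human CLEC4C promoter, active mainly in plasmacytoid dendritic cells, drives a receptor that makes cells sensitive to diphtheria toxin. All 6 mice, controls included, were given the toxin, at doses of 200 ng on day -1 and on days 1, 3 and 5. FITC (fluorescein isothiocyanate, a dye that sensitises skin) was applied at 0.5% in acetone and dibutyl phthalate to the abdomen on days 0 and 2 and to the right ear on day 6. No unchallenged ear and no mouse without toxin was analysed here, so the genotype itself and the removal of cells cannot be told apart.

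NADPH oxidases carry electrons from NADPH across a membrane to oxygen, which gives superoxide or hydrogen peroxide. In neutrophils and macrophages the membrane pair encoded by Cybb and Cyba stays silent until cytosolic subunits and a Rac GTPase join it, and in humans loss of a subunit causes chronic granulomatous disease, with failed killing of microbes. The dual oxidases make hydrogen peroxide at epithelial surfaces and need maturation factors to leave the endoplasmic reticulum. The arrays measured RNA only, not protein, assembly or oxidant production.

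Of the 5 phagocyte oxidase genes 4 rose in CLEC4C-DTR skin, and the catalytic subunit Cybb did not pass the test. Cyba, Ncf1, Ncf4 and Rac2 were 1.78-fold to 3.18-fold higher, while the difference of Cybb was -0.02 on the log2 scale. None of the 4 other oxidases passed the test in either direction. A gene was called higher or lower at an adjusted p of 0.05 in limma's fit over all genes, which called 5.01% of genes higher and 4.31% lower. By that rule 4 of the 9 members were called higher and 0 lower in limma, where Nox4 was the 1 member lower at an unadjusted p under 0.05. With the 2-fold threshold of the design text added, 1 member, Rac2, was called higher and 0 lower, against 1.67% and 0.376% of all genes. The 3 CLEC4C-DTR values lay above the 3 control values for 4 members and below them for 0, which held for 14.0% and 19.0% of all genes. The median log2 difference of the 5 phagocyte genes was 0.94 and that of the other 4 members was -0.07, beside -0.04 over all genes.

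**Figure D1:**
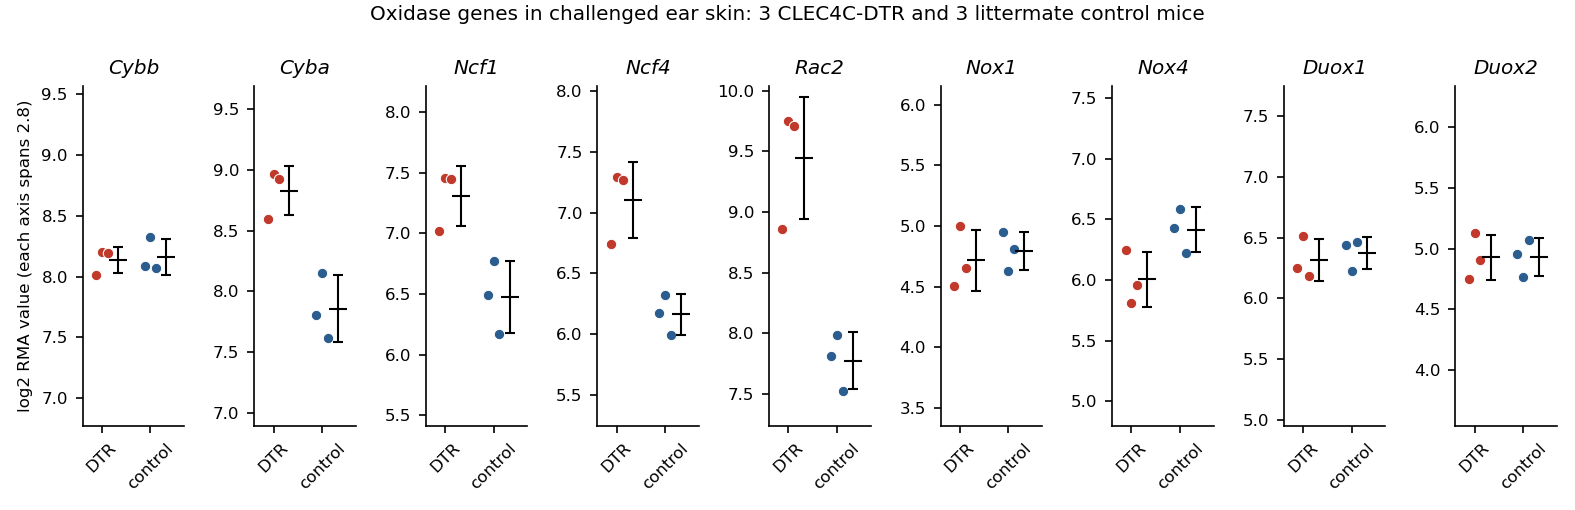
Log2 RMA values of the 9 oxidase genes in each mouse (points), with CLEC4C-DTR mice in red on the left and littermate controls in blue on the right of each panel, and the mean with its SD in black (n = 3 mice per group). Every axis spans the same 2.8 log2 units, so that separations can be compared across genes. The groups separate for Cyba, Ncf1, Ncf4 and Rac2 and overlap for the other 5 genes.

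Cybb encodes gp91phox, the catalytic flavocytochrome of the phagocyte oxidase. Its log2 values were 8.01, 8.21 and 8.19 in CLEC4C-DTR replicates 1, 2 and 3, against 8.09, 8.33 and 8.07 in control replicates 1, 2 and 3. The 2 groups overlapped throughout, with means of 8.14 ± 0.11 in CLEC4C-DTR and 8.16 ± 0.15 in control skin (SD, n = 3 each). The log2 difference was -0.02 (SE 0.10, limma adjusted p = 0.907), and its 95% interval ran from -0.26 to 0.21. The interval leaves out a 2-fold change of the array value in either direction. That value comes from 1 probe set, and how well the probe set follows the transcript was not tested. Across the 16 alternative analyses the difference stayed between -0.08 and 0.06, and Cybb was called in 0 of them (lowest adjusted p = 0.658).

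Cyba encodes p22phox, the small membrane subunit that stabilises Cybb protein and also pairs with Nox1 and Nox4. Its log2 values were 8.60, 8.97 and 8.92 in CLEC4C-DTR replicates 1, 2 and 3, against 7.81, 8.15 and 7.62 in the controls. The groups did not overlap, and the lowest CLEC4C-DTR mouse stood above the highest control. Cyba was 1.96-fold higher (log2 difference 0.97, SE 0.16, 95% interval 0.61 to 1.33, limma adjusted p = 0.0169). The interval of Cyba thus starts above the upper end of the interval of Cybb, its partner in the membrane.

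Ncf1 encodes p47phox, the organiser that carries the cytosolic subunits to the membrane when it is phosphorylated. Its log2 values were 7.02, 7.45 and 7.44 in CLEC4C-DTR mice, against 6.49, 6.77 and 6.17 in controls. The lowest CLEC4C-DTR value stood above the highest control value, so the groups did not overlap. Ncf1 was 1.78-fold higher (log2 difference 0.83, SE 0.17, limma adjusted p = 0.0290).

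Ncf4 encodes p40phox, a cytosolic subunit that binds a phosphoinositide of phagosome membranes. Its log2 values were 6.74, 7.30 and 7.27 in CLEC4C-DTR mice, against 6.17, 6.32 and 5.99 in controls, with no overlap. The gene was 1.92-fold higher (log2 difference 0.94, SE 0.16, limma adjusted p = 0.0184).

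Rac2, the Rac GTPase of blood cells that switches the assembled enzyme on, rose most of the members. Its log2 values were 8.86, 9.75 and 9.71 in CLEC4C-DTR mice, against 7.82, 7.98 and 7.52 in controls. All 3 CLEC4C-DTR mice stood above all controls, and replicates 2 and 3 stood well above replicate 1. Rac2 was 3.18-fold higher (log2 difference 1.67, SE 0.24, 95% interval 1.12 to 2.21, limma adjusted p = 0.0140), which placed it at percentile 99.4 of log2 differences over all genes. Ncf1, Ncf4 and Cyba lay at percentiles 97.3, 97.8 and 97.9, and Cybb at 53.3.

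The difference between Cybb and the other phagocyte genes was also computed within arrays, a comparison added after the values were seen. The log2 value of Cyba minus that of Cybb was higher by 0.995 in CLEC4C-DTR than in control mice, and the same measure was higher by 0.85 for Ncf1, 0.97 for Ncf4 and 1.69 for Rac2. For each of the 4 pairs the 3 CLEC4C-DTR mice lay above the 3 controls. The exact two-sided permutation test gave p = 0.1 for each (adjusted p = 0.1 over the 4 pairs). That is the smallest value that 3 mice against 3 allow, so the separation could not reach 0.05 by this test. The 4 genes already separated the groups and Cybb differed by -0.02, so this order was largely set beforehand. The pairs share Cybb and the same mice, and the test adds no support.

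The calls of the 4 genes rested on few mice. CLEC4C-DTR replicate 1 was the lowest of its group for all 5 phagocyte genes, and control replicate 2 was the highest of its group for all 5. Without CLEC4C-DTR replicate 1 or without control replicate 2 all 4 genes were still called, with adjusted p between 0.000385 and 0.0299. Without CLEC4C-DTR replicate 2 Rac2 alone was called (adjusted p = 0.0391). Without CLEC4C-DTR replicate 3, control replicate 1 or control replicate 3 limma called none of the 4, with adjusted p between 0.0537 and 0.105, and the share of all genes called fell to 0.542%, 0.838% and 0.336%. Their log2 differences in these 6 fits were 0.85 to 1.12 for Cyba, 0.68 to 0.97 for Ncf1, 0.85 to 1.12 for Ncf4 and 1.51 to 1.96 for Rac2. The calls were also lost without moderation of variances, where limma called 0 of all genes, and when all 35556 probe sets of the table were tested (adjusted p = 0.0565 to 0.0751).

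Nox1, an oxidase known best from colon epithelium and smooth muscle, had log2 values of 4.51, 5.00 and 4.65 in CLEC4C-DTR mice and 4.95, 4.63 and 4.81 in controls. The values were interleaved, and the difference was -0.08 (SE 0.14, 95% interval -0.40 to 0.25, limma adjusted p = 0.775). The signal of Nox1 lay at percentile 18.3 of all genes and that of Duox2 at 20.7. With no background measure available, the interval of Nox1 does not bound a change of the transcript itself.

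Nox4, which makes hydrogen peroxide without cytosolic activators and is found in fibroblasts, endothelium and kidney, had lower values in CLEC4C-DTR skin but did not pass. Its log2 values were 6.25, 5.81 and 5.96 in CLEC4C-DTR mice, against 6.43, 6.59 and 6.22 in controls. CLEC4C-DTR replicate 1 lay just above control replicate 3, and otherwise the groups were apart. The difference was -0.41 (SE 0.14, 95% interval -0.73 to -0.09), with an unadjusted p of 0.0184 and an adjusted p of 0.103 in limma. Without CLEC4C-DTR replicate 1 it was -0.53 and passed (adjusted p = 0.0355), the 1 call among its 15 alternatives.

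Duox1, a peroxide source of airway and other epithelia, had log2 values of 6.25, 6.51 and 6.19 in CLEC4C-DTR mice and 6.44, 6.23 and 6.46 in controls. Duox2, the dual oxidase of the thyroid and of gut epithelium, had 4.75, 5.13 and 4.90 in CLEC4C-DTR mice and 4.96, 4.76 and 5.07 in controls. For both genes the highest and the lowest value of all 6 mice were each found in CLEC4C-DTR skin. The difference of Duox1 was -0.06 (SE 0.11, 95% interval -0.32 to 0.20, limma adjusted p = 0.790). That of Duox2 was -0.00 (SE 0.12, 95% interval -0.28 to 0.28, limma adjusted p = 0.995). Both intervals leave out a 2-fold change of the array value, and the sign of Duox2 turned with centring or quantile scaling of the arrays. The signal of Duox2 lay at percentile 20.7 of all genes, and no background measure was available. For Duox2 the interval thus does not bound a change of the transcript itself.

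**Figure D2:**
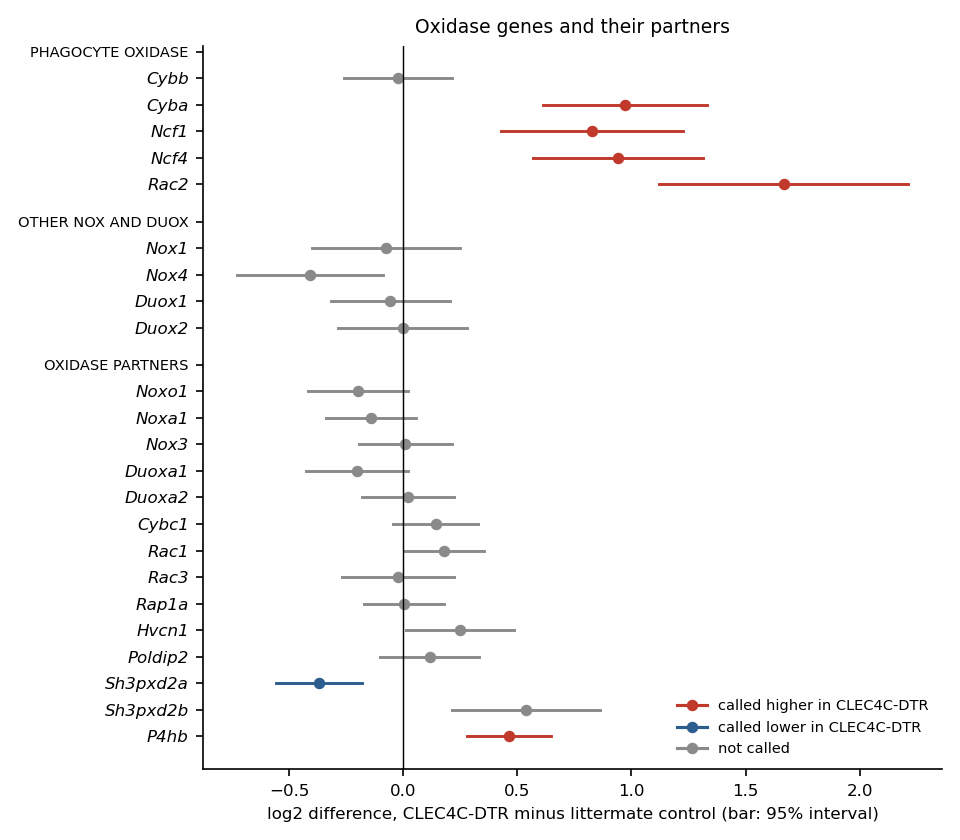
Log2 differences between CLEC4C-DTR and littermate control skin for the 9 members and 14 partner genes (points), with limma's 95% interval as a bar. Red marks genes called higher, blue genes called lower and grey genes not called at an adjusted p of 0.05. Cybb sits at -0.02 while Cyba, Ncf1, Ncf4 and Rac2 lie between 0.83 and 1.67, and most partners lie within 0.3 of 0.

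Promoters are shown for the membrane pair, of which Cyba rose and Cybb did not pass, and for Ncf1, which rose with Cyba. Sequences are those of RefSeq on build GRCm38.p6, 250 bases before to 50 bases after the transcript start, and 7 of the 9 members have one in the table (Ncf4 and Rac2 do not). They were searched on both strands for GAGGAA, a sequence bound by the myeloid factor PU.1, and for TGANTCA, an AP-1 type motif. Matches are in capitals, and other forms of these sites were not searched. The matches found did not overlap each other. The Cybb window (chrX:9469275-9469574, minus strand) held 1 match of each, GAGGAA on the opposite strand at bases 10 to 15 after the start and TGANTCA at bases -139 to -133.
Cybb: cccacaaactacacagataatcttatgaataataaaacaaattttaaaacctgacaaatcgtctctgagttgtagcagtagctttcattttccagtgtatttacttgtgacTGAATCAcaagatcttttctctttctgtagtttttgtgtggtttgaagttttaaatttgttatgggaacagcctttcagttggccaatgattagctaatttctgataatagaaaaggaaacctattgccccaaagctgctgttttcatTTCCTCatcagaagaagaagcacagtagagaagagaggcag
The Cyba window (chr8:122432891-122433190, minus strand) and the Ncf1 window (chr5:134229576-134229875, minus strand) held neither motif.
Cyba: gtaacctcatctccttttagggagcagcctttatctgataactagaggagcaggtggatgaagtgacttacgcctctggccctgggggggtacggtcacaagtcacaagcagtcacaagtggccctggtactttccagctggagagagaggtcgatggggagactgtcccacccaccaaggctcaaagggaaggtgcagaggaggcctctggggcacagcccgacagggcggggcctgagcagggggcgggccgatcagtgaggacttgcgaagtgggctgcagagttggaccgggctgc
Ncf1: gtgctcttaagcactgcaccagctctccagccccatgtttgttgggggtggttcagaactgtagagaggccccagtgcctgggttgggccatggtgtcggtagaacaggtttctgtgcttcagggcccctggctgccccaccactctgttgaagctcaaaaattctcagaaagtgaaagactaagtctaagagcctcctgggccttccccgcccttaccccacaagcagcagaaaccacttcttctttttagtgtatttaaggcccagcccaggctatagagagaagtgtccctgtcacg
GAGGAA was present in 28.3% and TGANTCA in 7.81% of all 32851 promoter windows of that length. Of the other members, the Nox1 window held 1 GAGGAA, at bases -23 to -18, and those of Nox4, Duox1 and Duox2 held neither. These are matches of letters, not measured binding.

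The genes that work directly with the members mostly did not pass. Of 14 measured partner genes 1 rose, 1 fell and 12 were not called, with a median log2 difference of 0.02. Most genes of the arrays did not pass either, with 5.01% called higher and 4.31% lower, so these counts are not particular to the partners. P4hb, a protein disulfide isomerase that associates with oxidase subunits, rose, with log2 values of 10.65, 10.60 and 10.68 in CLEC4C-DTR mice against 10.23, 10.22 and 10.10 in controls (log2 difference 0.46, SE 0.08, limma adjusted p = 0.0184). Sh3pxd2a, the scaffold Tks5, which resembles Ncf1 in its domains, fell by 0.37 on the log2 scale (SE 0.08, limma adjusted p = 0.0337). Its close relative Sh3pxd2b, the scaffold Tks4, differed by 0.54 with no overlap of groups and an adjusted p of 0.0526. P4hb was called in 3 and Sh3pxd2a in 2 of the 6 fits with 1 mouse left out.

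Cybc1, a chaperone that Cybb protein needs to mature, differed by 0.14 (limma adjusted p = 0.299). Rac1, the widely expressed counterpart of Rac2, differed by 0.18 (limma adjusted p = 0.179). Rac3 and Rap1a, a GTPase found with the membrane pair, differed by -0.02 and 0.00. Hvcn1, the proton channel that balances the charge moved by the oxidase, differed by 0.25 (limma adjusted p = 0.166). The Nox4 partner Poldip2 differed by 0.12. Among the 14 partners the 3 CLEC4C-DTR values lay above the 3 controls for 5, Rac1, Cybc1 and Hvcn1 among them. They lay below the controls for 2. These patterns held for 14.0% and 19.0% of all genes.

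Partners of the epithelial oxidases did not pass either. Noxo1 and Noxa1, the organiser and activator of Nox1, differed by -0.20 and -0.14. Nox3, an oxidase of the inner ear, differed by 0.01, with its signal at percentile 12.7 of all genes. Duoxa1 and Duoxa2, the maturation factors of the dual oxidases, differed by -0.20 and 0.02, and none of these 5 passed (limma adjusted p of 0.220 or above).

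Several signalling genes that turn the phagocyte oxidase on rose. Of 15 measured activation genes 6 rose, 1 fell and 8 were not called, and the list's median log2 difference was 0.31. Over all genes 5.01% were called higher and 4.31% lower. Syk, the kinase downstream of Fc and lectin receptors, had log2 values of 7.91, 8.67 and 8.62 in CLEC4C-DTR mice against 6.72, 7.15 and 6.44 in controls (log2 difference 1.63, SE 0.24, limma adjusted p = 0.0142). Vav1 and Dock2, exchange factors that load Rac with GTP, rose by 0.93 each (SE 0.14 and 0.13, log2). Pik3cg, the catalytic subunit of the lipid kinase used by chemoattractant receptors, rose by 0.70 (SE 0.09, log2, limma adjusted p = 0.0107) and was called in 5 of the 6 fits with 1 mouse left out, all but that without control replicate 3 (adjusted p = 0.0564). Syk, Vav1 and Dock2 lost their calls without CLEC4C-DTR replicate 3, control replicate 1 or control replicate 3, with adjusted p of 0.0724 or below. Named after their values were seen, the other calls were rises of Pik3r5 and Prex1, by 0.50 and 0.47, and a fall of the protein kinase C gene Prkca, by 0.56 on the log2 scale. With 1 mouse left out, Prex1 and Prkca were called only without CLEC4C-DTR replicate 1, and Pik3r5 there and without control replicate 2. Prkcd and Prkcb, kinases known to phosphorylate Ncf1 protein and also named after their values were seen, differed by 0.11 and 0.20 and did not pass.

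Genes that consume or move the oxidants went both ways. Of 18 measured handling genes 4 rose, 1 fell and 13 were not called, with a median log2 difference of 0.06. The shares over all genes were 5.01% higher and 4.31% lower. Cat, catalase, which breaks down hydrogen peroxide, had log2 values of 8.25, 7.67 and 8.28 in CLEC4C-DTR mice against 9.11, 8.88 and 9.49 in controls. It fell by 1.09 on the log2 scale (SE 0.20, limma adjusted p = 0.0210), and the groups did not overlap. Txnrd1, thioredoxin reductase, rose by 1.08 (SE 0.17, log2, limma adjusted p = 0.0169). Aqp3, an epidermal channel for water, glycerol and hydrogen peroxide, rose by 0.79, and Prdx3, a mitochondrial peroxidase, by 0.43 (log2). The other rise was that of Sod3, extracellular superoxide dismutase, by 0.47 (log2), named after its value was seen. Cat and Txnrd1 lost their calls without the same 3 mice as Syk (adjusted p up to 0.0832). Aqp3 and Prdx3 were called only without CLEC4C-DTR replicate 1 or control replicate 2, and Sod3 only without control replicate 2. Mpo and Epx, the peroxidases of neutrophil and eosinophil granules, likewise named after their values were seen, differed by -0.19 and 0.07 and did not pass. Their signals lay low, at percentiles 21.5 and 14.4 of all genes, with no background measure available.

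**Figure D3:**
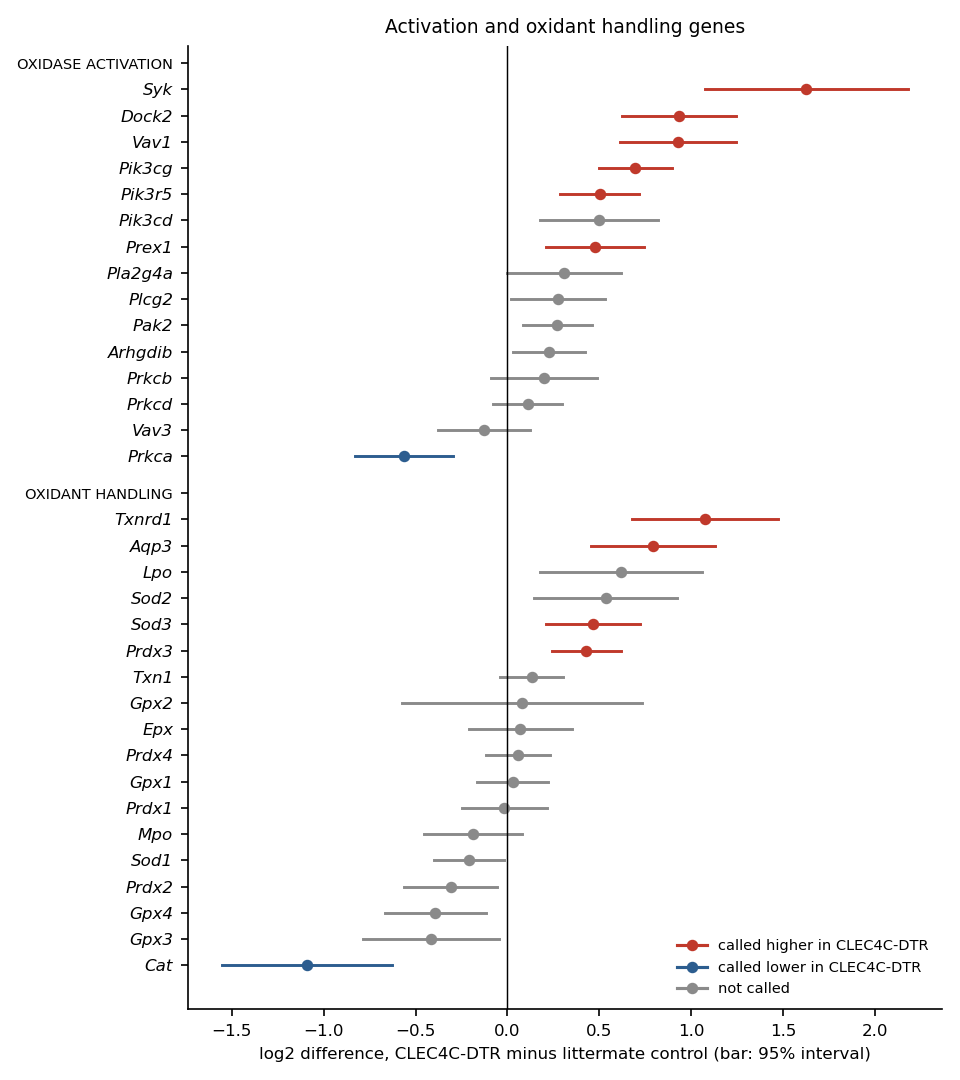
Log2 differences between CLEC4C-DTR and littermate control skin for 15 oxidase activation genes and 18 oxidant handling genes (points), ordered by size within each list, with limma's 95% interval as a bar. Red marks genes called higher, blue genes called lower and grey genes not called. The top of the activation list is held by Syk at 1.63, and catalase (Cat) lies apart at the bottom at -1.09.

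Markers of leukocytes moved with the phagocyte oxidase genes. In whole skin, more cells of a type and more RNA per cell cannot be told apart. The counts of marker calls stand beside 5.01% of all genes called higher and 4.31% called lower. All 6 pan-leukocyte genes rose, by 0.79 to 1.14 on the log2 scale, with a summed log2 level of 12.93 to 13.40 in CLEC4C-DTR mice and 11.96 to 12.43 in controls. Among them Ptprc, the leukocyte antigen CD45, had log2 values of 9.24, 10.19 and 9.92 in CLEC4C-DTR mice against 8.57, 9.0 and 8.37 in controls (log2 difference 1.14, limma adjusted p = 0.0335). The rises of Cyba, Ncf1 and Ncf4, 0.83 to 0.97, fall in the range of these 6 genes, that of Rac2 lies above it and the difference of Cybb below it. Ptprc had its lowest CLEC4C-DTR value in replicate 1 and its highest control value in replicate 2. It shared this with Rac2, Cyba, Ncf1 and Ncf4, and also with Cybb, which did not rise. With 1 mouse left out, 6 of the pan-leukocyte genes were called without CLEC4C-DTR replicate 1, 5 without control replicate 2, 3 without CLEC4C-DTR replicate 2, 1 without control replicate 1 or 3 and 0 without CLEC4C-DTR replicate 3.

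Of 10 neutrophil genes 7 rose and 0 fell, with a median log2 difference of 1.91. The summed log2 level was 14.18 to 14.78 in CLEC4C-DTR mice and 12.72 to 12.97 in controls. Sums are taken over unlogged values, and this one rests mostly on S100a8 and S100a9, the brightest of the list. Their mean log2 values were 13.10 and 13.29 in CLEC4C-DTR mice and 11.49 and 11.80 in controls. Which cells of the skin gave the RNA of S100a8 and S100a9 was not tested, so this sum is not a measure of neutrophils alone. S100a8, a calprotectin subunit, rose by 1.61 and Csf3r, the receptor for granulocyte colony-stimulating factor, named after its value was seen, by 2.37 (log2). The 3 genes not called were Camp, Ltf and Ngp, also named after their values were seen. They differed by -0.08, 0.31 and 1.20 (log2, limma adjusted p = 0.552, 0.134 and 0.0689). Their signals lay at percentiles 27.9, 19.2 and 21.3 of all genes. Of 10 monocyte and macrophage genes 7 rose and 1 fell, with a median of 0.92 and a summed log2 level of 12.81 to 13.16 in CLEC4C-DTR mice and 12.19 to 12.46 in controls. Cd68 rose by 0.92 and the macrophage receptor Mertk, named after its value was seen, fell by 0.51 on the log2 scale. With 1 mouse left out, 2 to 9 neutrophil genes and 1 to 7 monocyte and macrophage genes were called higher, and Mertk was called lower only without control replicate 2. Of 8 dendritic and Langerhans cell genes 3 rose, among them Itgax by 0.53, and 0 fell, with a summed log2 level of 9.59 to 9.87 in CLEC4C-DTR mice and 9.50 to 9.75 in controls. The 3 calls held without CLEC4C-DTR replicate 1, and 0 genes of that list were called in the other 5 fits. Of 7 T cell genes 2 rose and 0 fell (0 to 3 rose with 1 mouse left out), with summed levels of 10.30 to 10.77 in CLEC4C-DTR mice and 9.65 to 9.91 in controls. Cd3d differed by 0.64 without passing. None of 5 B cell genes and 8 eosinophil and mast cell genes passed (limma), 1 B cell gene having an unadjusted p under 0.05, and summed log2 levels were 7.40 to 7.53 and 10.11 to 10.31 in CLEC4C-DTR mice against 7.31 to 7.36 and 10.11 to 10.38 in controls. Cd79a of the B cell list differed by 0.12 and Siglecf of the eosinophil and mast cell list by 0.07 (log2). The signal of Cd79a lay at percentile 11.9 of all genes. The part of these cell types in the oxidase differences was not tested.

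**Figure D4:**
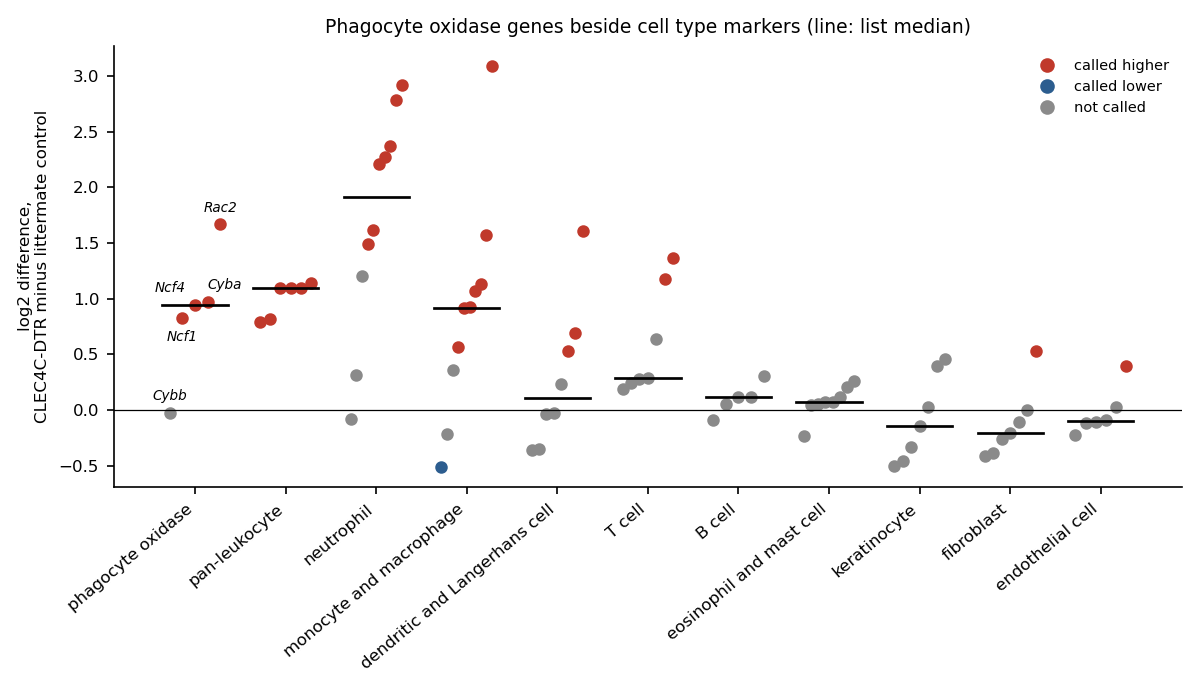
Log2 differences between CLEC4C-DTR and littermate control skin for the 5 phagocyte oxidase genes (left) and for the genes of 10 cell type lists (1 point per gene), with each list's median as a line. Red marks genes called higher, blue genes called lower and grey genes not called. Cyba, Ncf1 and Ncf4 lie at the height of the 6 pan-leukocyte genes, Rac2 above them and Cybb near 0.

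The labelled tissue was borne out by its markers, with the keratinocyte gene Krt5 at percentile 99.7 and the fibroblast gene Col1a1 at 83.1 of signal over all genes. Of 7 keratinocyte, 7 fibroblast and 6 endothelial genes, 0, 1 and 1 rose and 0 fell, with Krt5 at -0.15, Col1a1 at -0.26 and Pecam1 at 0.40 (log2). Skeletal muscle, cartilage, adipocyte, sebaceous and melanocyte lists held 2, 1, 2, 2 and 1 falls among 5, 5, 5, 4 and 4 genes and no rise. Over all genes 4.31% were called lower and 5.01% higher. Of the first gene of each list, Acan and Adipoq fell by 0.69 and 1.38 on the log2 scale, while Ckm, Mc5r and Tyr, at -0.46, -0.29 and -0.29, did not pass. With 1 mouse left out, the muscle and adipocyte lists each held 0 to 3 falls and 0 in 4 of the 6 fits, cartilage and melanocytes 0 to 2 and 0 to 3 with 0 in 5 fits, and the sebaceous list 0 to 2. The rises in the fibroblast and endothelial lists were called in 2 and 1 of the 6 fits. None of 7 plasmacytoid dendritic cell genes passed in limma, where Siglech differed by -0.17. Of them 5 had a negative and 2 a positive log2 difference, with a median of -0.17 beside -0.04 over all genes. The summed log2 level was 10.27 to 10.56 in CLEC4C-DTR mice and 10.21 to 10.55 in controls. That sum rests mostly on Bst2 and Tcf4. Their mean log2 values were 9.41 and 8.76 in CLEC4C-DTR mice and 8.84 and 9.17 in controls. Whether plasmacytoid dendritic cells were fewer was not tested. The 3 genes of that list with an unadjusted p under 0.05, named after their values were seen, did not go one way. Their log2 differences were -0.41 for Tcf4, -0.28 for Smim5 and 0.57 for Bst2. With 1 mouse left out, Tcf4 was called lower without CLEC4C-DTR replicate 1 (limma adjusted p = 0.0156) and Bst2 higher without control replicate 2 (limma adjusted p = 0.0218), and no gene of that list was called in the other 4 fits. Array medians were 6.17 to 6.23 (log2).

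Genes with the profile most like that of each member were found by the root-mean-square distance between log2 profiles over the 6 arrays, each centred on its own mean. All 6 arrays and both groups enter this measure, so genes with the same group difference come first, and the list is a description. Nearest to Cyba were Spi1, which encodes the myeloid factor PU.1, Nfkbia, an inhibitor of NF-kB, and Dock2, at distances of 0.037, 0.042 and 0.046 log2. Spi1 was also nearest to Ncf1 (0.064), followed by Atp11a and Cd52, and itself rose by 0.94 (SE 0.17, log2, limma adjusted p = 0.0217). Nearest to Ncf4 were Cyth1, Vav1 and Grina (0.039 to 0.064), and nearest to Rac2 were Syk, Jaml and Smox (0.10 to 0.103). All of these rose in limma's fit.

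The members that were not called had neighbours that were not called either, as the measure makes likely. They were Mir301, Vpreb1 and Mmrn2 for Cybb (0.020 to 0.032), Nom1, Znhit3 and Dcun1d5 for Nox1 (0.028 to 0.041) and Syne2, Ptgis and Amer1 for Nox4 (0.038 to 0.059). For Duox1 they were Rae1, Gm597 and Abitram (0.018 to 0.027), and for Duox2 Oxgr1, Rgcc and 9130213A22Rik (0.025 to 0.040). Of these 15 genes the lowest adjusted p was that of Amer1, 0.086.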

How the data were processed

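Ear skin RNA was read on Affymetrix Mouse Gene 1.0 ST arrays, per the labels' protocols. The deposited log2 values come from RMA, which corrects background, applies quantile normalisation and summarises probe sets, per the series' design text. That they are log2 was read from the values. No source used here names the RMA software. RMA hides changes shared by most genes, and the table holds no background measure.

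Of 35556 probe sets, 21789 are listed with 1 gene symbol, 1621 with several and 12146 are not listed and stay unnamed. The brightest single-symbol probe set per gene gave 19938 genes. No pair of arrays was identical. The 3 CLEC4C-DTR arrays were compared with the 3 littermate control arrays with limma 3.58.1 (lmFit and eBayes in R 4.3.3, with statmod 1.5.0). Tests were two-sided without covariates, and p-values were adjusted by Benjamini-Hochberg over all genes. Differences are CLEC4C-DTR minus control, with limma's SE and unadjusted 95% intervals. Within-array differences from Cybb, a comparison added after the values were seen, used exact permutation (scipy 1.17.1). Same-numbered mice were not treated as pairs. P-values measure the spread between mice. The number of arrays limits precision. The fit was tested on simulated data.

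The members and gene lists were chosen with earlier results of these data known. Named are all 9 members, all measured partners, the 4 smallest p of the 2 other pathway lists, the 3 genes nearest to each member and the first gene of each cell type list. Others were named after their values were seen. Alternatives were 10 other scalings, filters, moderations, weights, probe set rules and a replicate block, and each of the 6 arrays left out. Figures used matplotlib 3.10.9 in Python 3.11.15.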

Additional observations from a re-analysis of the deposited data

How the results depend on the processing

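With all 6 arrays, the count of 4 members called higher held in 8 of 10 alternatives and was 0 without variance moderation and 0 when all probe sets were tested. With 1 array left out it ranged from 0 to 4, the count called lower from 0 to 1 (Nox4), and the count past 2-fold, 1 in the full data, from 0 to 3. The 2-fold count was 2 with median centring, 2 with array weights, 0 without moderation and 0 with all probe sets. Among partners 1 rose in the full data, 2 over genes at or above the median level, 2 with array weights, 0 without moderation and 0 with all probe sets (0 to 2 with 1 array left out). The 1 partner called lower was 0 without moderation, with all probe sets, with the mean of a gene's probe sets and with the replicate block, and 0 to 1 with 1 array left out. Activation genes called higher numbered 0 without moderation, 1 with all probe sets and 0 to 7 with 1 array left out, and those called lower 0, 0 and 0 to 1. Handling genes called higher numbered 0, 0 and 0 to 5 in the same settings, and those called lower 0, 0 and 0 to 1. Without moderation 0 genes passed at all, and with all probe sets, which changes both the number of tests and the variance prior, 0.351% did. The cause of these shifts was not tested.

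Differences near 0 changed sign. Cybb was 0.0085 with median centring and 0.00087 with array weights, and -0.071 to 0.060 with 1 array left out. Duox2 was 0.031 with median centring, 0.056 with further quantile scaling and -0.10 to 0.086 with 1 array left out. With 1 array left out Nox1 was -0.22 to 0.029 and Duox1 -0.15 to 0.0080. None of Cyba, Ncf1, Ncf4 and Rac2 changed sign in the 16 alternatives.

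In the sample titles, same-numbered mice are linked by their number alone. Their deviations from the group mean correlated at -0.06, 0.22 and 0.10, and those of differently numbered mice at -0.27 to 0.18. A shared batch was not tested. With the replicate block 4 members were called higher, as without it. With 3 arrays per group, differences of uncalled members are bounded only by their intervals.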
